A study of Mus musculus with 6 samples.

Results

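Integrins are cell-surface receptors made of 1 α and 1 β subunit that tie the actin cytoskeleton to the extracellular matrix. The 10 integrin genes described here (Itga4, Itga5, Itga8, Itga9, Itgav, Itgb3, Itgb5, Itgb6, Itgb7 and Itgb8) encode the subunits of receptors for fibronectin, vitronectin, tenascin and related ligands, many of which bind the tripeptide arginine-glycine-aspartate (RGD). They were taken by name from a deposited table of 55401 genes, where each of the 10 had an entry. RNA-seq of poly(A) RNA was available from 6 libraries of primary mouse chondrocytes from cartilage. The Nf2-knockout group (3 libraries) and the control group (3 libraries) both carried floxed Nf2, the gene of the membrane-associated Hippo pathway protein merlin, which was deleted in the knockouts. The series describes the cultures as undergoing differentiation. The names of all 6 libraries also carry the mark D7, which was read here neither as an age nor as a day of culture. The promoter that drove the deletion, the exons removed, the age of the animals and whether replicates came from separate animals are not stated. The p-values therefore measure only the spread between these libraries. For the knockouts, a treatment label also names TCF21 overexpression, absent from their titles. Tcf21 had 0, 2 and 0 counts in Nf2-knockout libraries and 0, 0 and 0 in controls.

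Integrins have no known enzymatic activity in their cytoplasmic tails. Their β tails recruit talin, kindlin and a set of kinases and adaptors to focal adhesions, and the αv receptors that hold β6 or β8 can release active TGF-β from its latent complex. In cartilage, α5β1 is known as the main fibronectin receptor of chondrocytes, and α8β1 is known from smooth muscle and from kidney development, where it binds the RGD protein nephronectin. Merlin acts upstream of the Hippo kinases, a pathway that also responds to adhesion and cytoskeletal tension.

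The RGD tripeptide is short, and its codons differ between ligands. Of 20 genes of the RGD ligand list, 18 had at least 1 run of codons for RGD in their longest annotated coding transcript (GENCODE M21, GRCm38), and Fn1 and Fbn2 had 2 each. The mouse transcripts of Tnc and Adam15 held none. The runs below come from the ligand with the classic RGD site, from the most abundant RGD ligand and from 5 ligands whose mRNA differed between the groups. They are exonic coding sequence from 5′ to 3′, with the RGD codons in capitals.
Fn1 (fibronectin, first run, exon 30, chr1:71606737-71606763, minus strand): gtcactggcCGTGGGGACagtccagca
Spp1 (osteopontin, exon 7, chr5:104439472-104439498, plus strand): cccaacggcCGAGGTGATagcttggct
Thbs1 (thrombospondin, exons 17 and 18, chr2:118122680-118122899 with the intron, plus strand): ggtgatggcCGAGGTGACgcctgcaaa
Nid1 (nidogen, exon 9, chr13:13483760-13483786, plus strand): atcggcttcCGAGGAGACgggcagact
Tgfb1 (latency peptide, exon 5, chr7:25697133-25697159, plus strand): cccaaacgtCGGGGCGACctgggcacc
Tgfb3 (latency peptide, exon 5, chr12:86062156-86062182, minus strand): gaccatggcCGTGGAGACctggggcgt
Edil3 (exon 4, chr13:89042482-89042508, plus strand): gaagcctatCGAGGAGACacattcata

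Library totals lay between 50906043 and 63748798 counts. Nf2 itself was lower, at 95.3 ± 6.59 CPM in the knockouts and 126.8 ± 5.32 CPM in the controls (log2 fold change −0.41, adjusted p = 0.0305, edgeR) and the call was lost when any 1 of the 6 libraries was left out. CPM are read counts scaled to a common library size (edgeR, TMM), errors are SD over n = 3 libraries in each group, and a positive log2 fold change means a higher level in the knockouts. The edgeR quasi-likelihood test covered 18218 genes, and a call needed a Benjamini-Hochberg adjusted p under 0.05. Markers of chondrocytes were present, with a summed level of 1823, 1975 and 1040.0 CPM in the knockouts and 917, 1368 and 1283 CPM in the controls, and of the 14 Col2a1 rose and Col9a2 fell, each in 1 of the 6 fits that left out 1 library. Mean levels were uneven, with Col2a1 at 581.2 and 231.1 CPM and Acan at 8.18 and 12.65 CPM in the knockouts and the controls. Markers of fibroblasts were higher in summed level than those of chondrocytes, at 8021 to 10278 CPM in the knockouts and 11860 to 15221 CPM in the controls. Of the 8, 3 fell (Lum, Fap and Pdgfra, with 1 to 4 falls without 1 library), against 5.18% of tested genes. The most abundant of them, Col1a1, Col1a2 and Col3a1, did not pass. Bulk RNA cannot tell fewer cells of a type from less RNA per cell.

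Of the 10 integrin genes, 3 rose in Nf2-knockout libraries, Itga8, Itgb7 and Itga5, and 0 fell. Among tested genes 9.29% changed, of which 749 rose (4.11%) and 944 fell (5.18%), while limma on log2 FPKM gave 1083 rises and 635 falls and the same 3 integrin rises. The 3 calls were mostly lost with 1 library left out, when 0 or 1 of the 10 passed. That 1 was Itga8 without Nf2-knockout replicate 2 or control replicate 2. Without control replicate 3 it was Itgb8, as a fall. Calls over all tested genes also dropped, from 1693 to between 629 and 1186. Without adjustment, 4 of the 10 had an edgeR p under 0.05, against 24.8% of tested genes, and DESeq2 called 4, the fourth being Itgb8, against 13.3% of genes to which it gave an adjusted p. Knockouts and controls were fully apart in 5 of the 10 (Itga5, Itga8, Itgb6, Itgb7 and Itgb8), against 32.9% of tested genes. For groups fully apart, an exact permutation test (two-sided) over the 6 libraries can only give p = 0.1, the smallest it allows. Its result was thus fixed for these 5 genes and adds nothing to the lack of overlap. All 10 had enough counts to be tested, but Itgb6 reached the count filter in 3 Nf2-knockout libraries and in 2 controls, so it was tested because of the group in which it was higher.

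**Figure D1:**
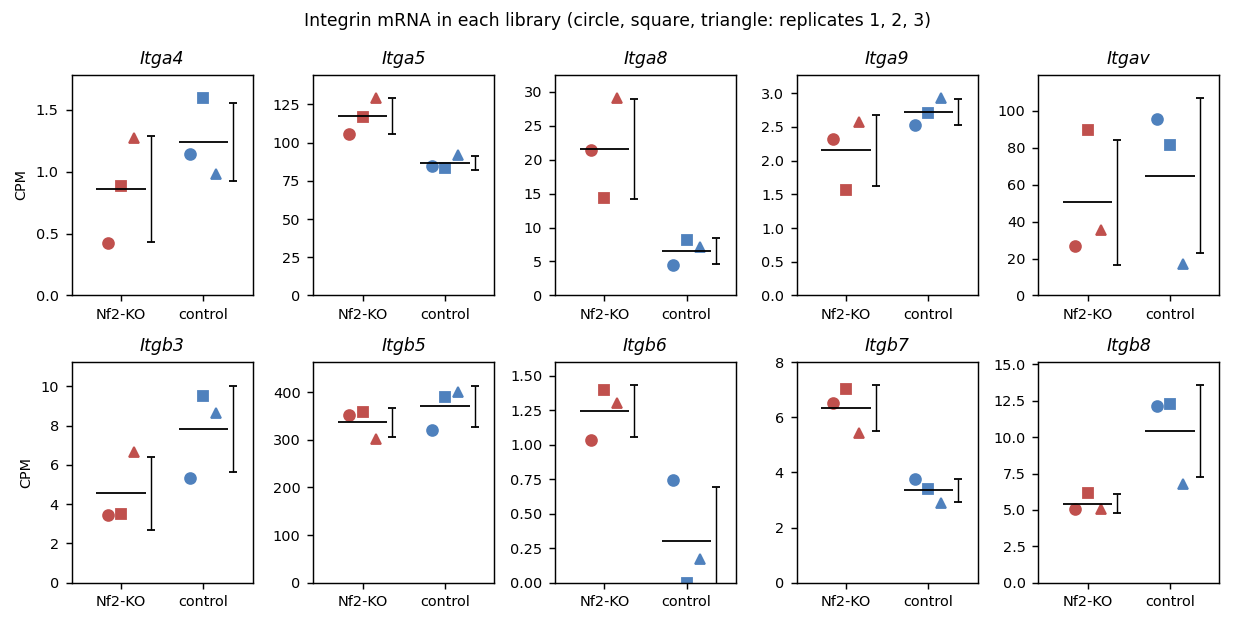
CPM of each integrin gene in each library (y axis, linear, from 0), with Nf2-knockout libraries in red on the left and controls in blue on the right of each panel. Horizontal lines are group means and bars are SD (n = 3), cut at 0 for Itgb6 in controls. The groups stand apart for Itga5, Itga8, Itgb6, Itgb7 and Itgb8, and Itgav spreads from 17.1 to 95.7 CPM within the controls alone.

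Among the α subunits of RGD receptors, Itga8 had the largest called change. Itga8 (ENSMUSG00000026768, chromosome 2, 12106632 to 12301922, minus strand, GRCm38) had 21.4, 14.3 and 29.0 CPM in Nf2-knockout libraries, against 4.47, 8.18 and 7.09 CPM in controls. Each knockout library was above each control, and both groups varied about as much among themselves, by 2.03-fold in the knockouts and 1.83-fold in the controls. The log2 fold change was 1.71 (SE 0.316, adjusted p = 0.0205, edgeR), a 3.28-fold difference, larger in size than that of 95.7% of tested genes. Without 1 library it lay between 1.45 and 1.95. It still passed when Nf2-knockout replicate 2 or control replicate 2 was left out, but not when any other library was left out (adjusted p up to 0.0647). Npnt, the gene of the α8β1 ligand nephronectin, did not pass (log2 fold change 0.13, adjusted p = 0.837).

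Among markers of pericytes and smooth muscle, cells that use α8β1, 3 of 8 rose and 0 fell, against 4.11% and 5.18% of tested genes. When any 1 control was left out, 2 rose. Their median log2 fold change was 1.06, against −0.01 over all tested genes. The markers summed to 484, 452 and 844 CPM in the knockouts and 296, 216 and 242 CPM in the controls. Most of this sum was Acta2 in each library. Acta2 alone had 274, 262 and 530 CPM in the knockouts and 153, 131 and 133 CPM in the controls. The summed level was highest in Nf2-knockout replicate 3, the library with the highest Itga8. Among the controls the summed level was highest in replicate 1, the library with the lowest Itga8. Acta2 (smooth muscle actin), Cspg4 and Rgs5 (pericyte markers) rose, by 1.35, 1.08 and 1.96 on the log2 scale, Acta2 in 3 of the 6 fits that left out a library (adjusted p up to 0.0972). The other 5 did not pass, with log2 fold changes of 1.24 for Tagln, 1.03 for Mcam, −0.07 for Cnn1, −0.33 for Myh11 and −0.39 for Des. Myh11, the myosin of mature smooth muscle, had 53, 49 and 195 counts in the knockouts and 249, 70 and 25 in the controls. The part of such cells in the Itga8 difference was not tested.

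Itga5, which encodes the α5 subunit of the main fibronectin receptor, changed less but evenly. Itga5 (ENSMUSG00000000555, chromosome 15, 103344286 to 103366763, minus strand) had 105.8, 117 and 129 CPM in Nf2-knockout libraries, against 84.6, 83.3 and 92.2 CPM in controls. The lowest knockout library was above the highest control. The log2 fold change was 0.44 (SE 0.0999, adjusted p = 0.0398, edgeR), or 1.35-fold. The call was lost without any 1 of the 6 libraries (log2 fold changes 0.37 to 0.52, adjusted p 0.0572 to 0.134) and when genes with low counts were kept in the test (adjusted p = 0.0582).

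Itgav encodes the αv subunit, which pairs with Itgb1, Itgb3, Itgb5, Itgb6 and Itgb8. It had 27.0, 89.4 and 35.2 CPM in Nf2-knockout libraries, against 95.7, 81.7 and 17.1 CPM in controls. High and low libraries occurred in both groups, with a 3.31-fold range in the knockouts and a 5.61-fold range in the controls, the widest within-group ranges among the 10 genes wherever each library had a count. The log2 fold change was −0.36 (SE 0.665, adjusted p = 0.793, edgeR) and was 0.033 without control replicate 1. No direction could be read for Itgav.

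The β partners of αv differed widely in level. Itgb5, of the vitronectin receptor αvβ5, had 351, 358 and 302 CPM in Nf2-knockout libraries, against 321, 390.2 and 400.4 CPM in controls, and the groups overlapped (log2 fold change −0.14, SE 0.117, adjusted p = 0.537). Itgb3 encodes the β subunit of αvβ3, which osteoclasts use, and on platelets its product pairs with that of Itga2b. Itgb3 had 3.45, 3.52 and 6.68 CPM in Nf2-knockout libraries, against 5.35, 9.52 and 8.65 CPM in controls. Nf2-knockout replicate 3 lay above control replicate 1, and the difference did not pass (−0.78, SE 0.340, adjusted p = 0.21). Markers of platelets were low in both groups, at 3.01 to 4.34 CPM in the knockouts and 3.51 to 3.96 CPM in the controls over 7 genes, and the osteoclast genes Calcr and Dcstamp had no count in any library. The 8 osteoclast markers summed to 1053 to 1522 CPM in the knockouts against 1031 to 1380 CPM in the controls, most of it Ctsk, and of 5 tested, 1 fell, Atp6v0d2 (log2 fold change −1.65, adjusted p = 0.0102). The other tested ones did not pass, with log2 fold changes of 0.17 for Ctsk, 0.39 for Acp5, −0.45 for Oscar and −4.05 for Mmp9 (adjusted p = 0.0521 for Mmp9). Ocstamp, too low to be tested, had 0, 0 and 0 counts in the knockouts and 24, 7 and 8 in the controls.

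Itgb8, whose αvβ8 receptor binds latent TGF-β, was lower in each knockout library without passing the test. Itgb8 (chromosome 12, 119158022 to 119238802, minus strand) had 5.04, 6.18 and 5.08 CPM in Nf2-knockout libraries, against 12.2, 12.3 and 6.81 CPM in controls. Control replicate 3 stood nearer to the knockouts than to the other controls. The log2 fold change was −0.94 (SE 0.256, adjusted p = 0.0671, edgeR). Without control replicate 3 it was −1.17 and passed (adjusted p = 0.0255), and DESeq2 also called it (adjusted p = 0.0108).

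Itgb6, whose αvβ6 receptor is an epithelial activator of latent TGF-β, was near the limit of detection. It had 54, 88 and 87 counts in Nf2-knockout libraries, against 44, 0 and 10 counts in controls. The single control with a sizeable count, replicate 1, reached 0.742 CPM, below the lowest knockout at 1.03 CPM. The log2 fold change of 2.01 (SE 1.09, adjusted p = 0.314) moved with single controls: it was 3.78 without control replicate 1 and 1.43 without control replicate 2. Epithelial markers summed to 7.62 to 11.3 CPM in the knockouts and 3.13 to 3.95 CPM in the controls. Of these, Krt19 rose (428, 333 and 512 counts in Nf2-knockout, against 113, 84 and 107 in control libraries), while the defining marker Epcam had 0, 11 and 8 counts, against 0, 0 and 0 in controls. Of the 8 markers only 3 were tested, and Krt19 was the 1 that passed, against 4.11% of tested genes that rose. Krt18 and Cdh1 did not pass, with log2 fold changes of 0.18 and 1.645. The part of epithelial cells in the Itgb6 values was not tested.

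The remaining genes belong to receptors best known from leukocytes and from tenascin and VCAM-1 binding. Itgb7, the β subunit that pairs with α4 and αE on lymphocytes, rose. Itgb7 (ENSMUSG00000001281, chromosome 15, 102215995 to 102231944, minus strand) had 6.53, 7.03 and 5.43 CPM in Nf2-knockout libraries, against 3.74, 3.39 and 2.91 CPM in controls. The groups were well apart relative to their spread (log2 fold change 0.92, SE 0.2, adjusted p = 0.034, edgeR, or 1.89-fold). The call was lost without any 1 library, where log2 fold changes were 0.83 to 1.03 and adjusted p-values 0.0597 to 0.104.

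The cells and partners with which Itgb7 is usually found were scarcely detected. Of 8 lymphocyte markers 6 had no count in any library, and the 8 summed to 0 to 0.0634 CPM in the knockouts and 0 CPM in the controls. Itgae, the gene of αE, had 0, 12 and 0 counts in the knockouts and 6, 15 and 16 in the controls. Itga4, the gene of α4, had 22, 56 and 85 counts in Nf2-knockout libraries, against 68, 86 and 56 in controls (log2 fold change −0.52, SE 0.472, adjusted p = 0.56). Madcam1, the gene of the gut vascular ligand of α4β7, had no count in any library.

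Itga9 encodes α9, which with β1 binds tenascin-C and other ligands outside RGD. It had 2.32, 1.57 and 2.58 CPM in Nf2-knockout libraries, against 2.53, 2.71 and 2.93 CPM in controls, with overlap between the groups (log2 fold change −0.34, SE 0.267, adjusted p = 0.498). The genes Gm10157 and Gm2415 lie on the opposite strand of Itga9, at 4.42 and 1.7 CPM in the knockouts and 5.67 and 2.53 CPM in the controls. The sources used here do not say whether the libraries keep the strand, so reads of Itga9 and these genes may not be separable. Of the 10 genes, 5 overlap another annotated gene, and Itga9 is the 1 with an overlapping gene at 1 CPM or more.

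**Figure D2:**
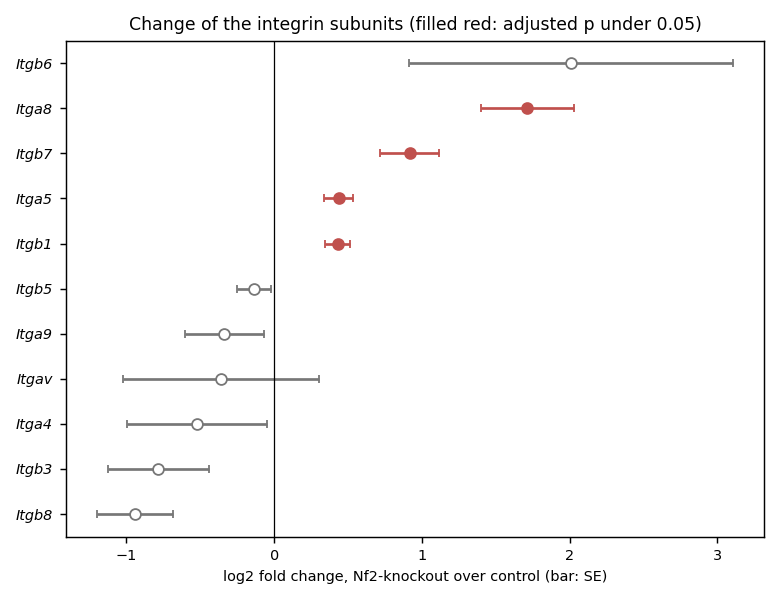
Log2 fold change of each integrin gene, Nf2-knockout over control (x axis), with SE from the edgeR test as bars, together with the partner Itgb1. Filled red points passed at an adjusted p under 0.05 (Itga8, Itgb7, Itga5 and Itgb1), and open grey points did not, including Itgb6 with the widest error.

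Levels per transcript length (the authors' FPKM) placed the 10 genes over more than 3 orders of magnitude, and Itgb5 and Itga5 stood clear above the rest in both groups. In Nf2-knockout libraries Itgb5 averaged 88.3 ± 7.2 FPKM and Itga5 22.2 ± 2.39 FPKM, followed by Itgav (4.37 ± 2.91 FPKM), Itga8 (2.73 ± 0.954 FPKM) and Itgb7 (2.12 ± 0.257 FPKM), whose library ranges overlapped from each to the next. Below them came Itgb3 (0.718 ± 0.3 FPKM), Itgb8 (0.456 ± 0.0531 FPKM), Itga9 (0.26 ± 0.0657 FPKM), Itgb6 (0.162 ± 0.0246 FPKM) and Itga4 (0.0569 ± 0.0294 FPKM), each apart from its neighbour. In control libraries Itgb5 averaged 90.5 ± 10.2 FPKM and Itga5 15.3 ± 0.764 FPKM. Itgav (5.25 ± 3.41 FPKM), Itgb3 (1.15 ± 0.32 FPKM), Itgb7 (1.04 ± 0.136 FPKM), Itgb8 (0.818 ± 0.249 FPKM) and Itga8 (0.773 ± 0.223 FPKM) followed with ranges that overlapped from each to the next. Itga9 (0.306 ± 0.0203 FPKM) stood apart from both neighbours, and Itga4 (0.0763 ± 0.0191 FPKM) and Itgb6 (0.0365 ± 0.0474 FPKM) overlapped. Itga8 thus held rank 4 in Nf2-knockout libraries and rank 7 in controls.

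The common partner Itgb1, the β1 subunit of the α4, α5, α8, α9 and αv receptors, was far more abundant and rose with Itga5 and Itga8. It had 1594, 1473 and 1489 CPM in Nf2-knockout libraries, against 1066, 1166 and 1151 CPM in controls (log2 fold change 0.43, SE 0.0852, adjusted p = 0.0252, edgeR). Every knockout library was above every control. It still passed when Nf2-knockout replicate 2 or control replicate 3 was left out, but not in the other 4 such fits. The partner of Itgb3 on platelets, Itga2b, had 106, 127 and 162 counts in the knockouts and 137, 76 and 101 in the controls and did not pass (adjusted p = 0.669).

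Expressed as a share of the summed FPKM of the β subunits that αv can join, Itgb1 made up 79.6%, 78% and 80.8% in Nf2-knockout libraries and 73.9%, 71.8% and 71.1% in controls. Itgb5 made up 20.2%, 21.7% and 18.8% in Nf2-knockout libraries and 25.5%, 27.6% and 28.4% in controls. Itgb3, Itgb6 and Itgb8 together were under 1% in every library, with Itgb3 at 0.166% ± 0.0734 and 0.343% ± 0.0775 and Itgb8 at 0.105% ± 0.0143 and 0.248% ± 0.0822 in the knockouts and the controls. The level of Itgb5 itself averaged 88.3 FPKM in the knockouts and 90.5 FPKM in the controls. With Itgb1 taken out of the sum, Itgb5 made up 98.8%, 98.7% and 98.0% in Nf2-knockout libraries. In controls that share was 97.7%, 97.6% and 98.2%, so the groups overlapped. Among the α genes of this group that pair with β1, Itga5 held the largest share in each library, at 78.9%, 69.3% and 77.4% in the knockouts and 63.4%, 64.8% and 86.2% in the controls. Itga8 made up 10.7%, 5.68% and 11.6% in Nf2-knockout libraries, against 2.23%, 4.25% and 4.43% in controls, without overlap. The share of Itgav followed its uneven counts, at 9.22%, 24.3% and 9.69% in the knockouts and 32.9%, 29.2% and 7.3% in the controls. These are shares of mRNA, given without a test.

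**Figure D3:**
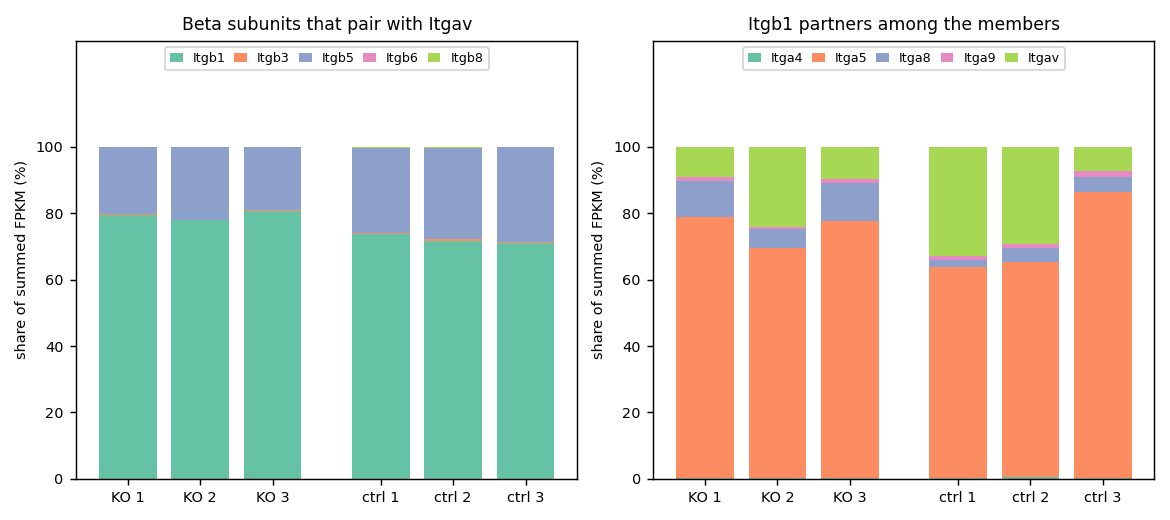
Share of summed FPKM (y axis, percent) in each library, Nf2-knockout 1 to 3 on the left and control 1 to 3 on the right of each panel. The left panel holds the β genes that pair with Itgav and the right panel the α genes described here that pair with Itgb1. Itgb1 and Itgb5 fill nearly the whole left panel, and the Itga8 segment is larger in all 3 Nf2-knockout columns than in any control column.

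Ligands of these receptors moved in both directions. Of 18 tested genes of the RGD ligand list, 3 rose and 4 fell, against 4.11% and 5.18% of tested genes. Their median log2 fold change was 0.10, against −0.01 over all tested genes. Thbs1, thrombospondin 1, whose RGD codons are printed above, rose to 2502, 2392 and 2549 CPM in Nf2-knockout libraries, against 841, 902 and 910.4 CPM in controls (log2 fold change 1.49, SE 0.085, adjusted p = 0.00304). Nid1, a basement membrane linker, and Adam15, a transmembrane disintegrin whose human form carries RGD, rose by 0.48 and 0.47 on the log2 scale, in 1 and 3 of the 6 fits that left out 1 library. Without 1 library 1 to 3 genes of the list rose, and 3 or 4 fell, with 1 rise without Nf2-knockout replicate 1, Nf2-knockout replicate 3 or control replicate 2.

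The RGD ligands that fell included both TGF-β isoforms whose latency peptides carry RGD. Tgfb1 had 71.6, 78.8 and 63.0 CPM in Nf2-knockout libraries, against 122, 126 and 117 CPM in controls (log2 fold change −0.78, SE 0.103, adjusted p = 0.0082). Tgfb3 fell by 0.46 on the log2 scale, which passed in 1 of the 6 fits that left out a library. Edil3, a secreted ligand of αvβ3 and αvβ5, had 109, 160.7 and 94.6 CPM in Nf2-knockout libraries, against 436, 379 and 318 CPM in controls (−1.64, SE 0.216, adjusted p = 0.00807). Fbn2, fibrillin 2 of microfibrils, had a log2 fold change of −1.34 (adjusted p = 0.00853).

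The most abundant RGD ligands did not pass. Fn1 had 495, 475 and 417 FPKM in Nf2-knockout libraries, against 449, 448 and 432 FPKM in controls (log2 fold change −0.04, SE 0.105, adjusted p = 0.863). Spp1 averaged 5511 ± 670 FPKM in the knockouts and 5123 ± 794 FPKM in the controls (0.01, adjusted p = 0.99). Vtn, the gene of vitronectin, a plasma protein that serum can bring to cultures, had 39, 13 and 25 counts in the knockouts and 39, 23 and 56 in the controls. Tnc, tenascin-C, had a log2 fold change of 0.15 (adjusted p = 0.364).

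Of 17 tested genes in the list of other ligands, 3 rose and 1 fell (median −0.42), against 4.11% and 5.18% of tested genes. Ccn2, a matricellular ligand of several integrins, rose by 1.05 on the log2 scale (adjusted p = 0.00332). Ltbp1, which tethers latent TGF-β to the matrix, had 106.5, 110.1 and 129 CPM in Nf2-knockout libraries, against 62.2, 74.2 and 68.3 CPM in controls (0.76, SE 0.112, adjusted p = 0.0103). It moved opposite to Tgfb1 and Tgfb3 in the same libraries. Tnxb (tenascin-X) rose by 0.72, and Vcam1, the cell-surface ligand of α4β1 and α9β1, had a log2 fold change of −0.66 (adjusted p = 0.0219), and each of these 2 passed in 2 of the 6 fits that left out a library. Nrros, which presents latent TGF-β on macrophages, did not pass (52, 29 and 35 counts in Nf2-knockout, against 51, 208 and 128 in control libraries). Macrophage and myeloid markers summed to 51.3 to 115 CPM in the knockouts and 163 to 427 CPM in the controls. Of the 14, 5 fell (Cd68, Mrc1, C1qa, C1qb and Csf1r) and 0 rose, against 5.18% and 4.11% of tested genes. Only 0 to 3 fell when 1 library was left out, with 0 on leaving out Nf2-knockout replicate 1 or 3 or control replicate 2 or 3. The most abundant, Lyz2, did not pass (adjusted p = 0.089), nor did C1qc. Their part in the values of Nrros, Vcam1 and Tgfb1 was not tested.

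**Figure D4:**
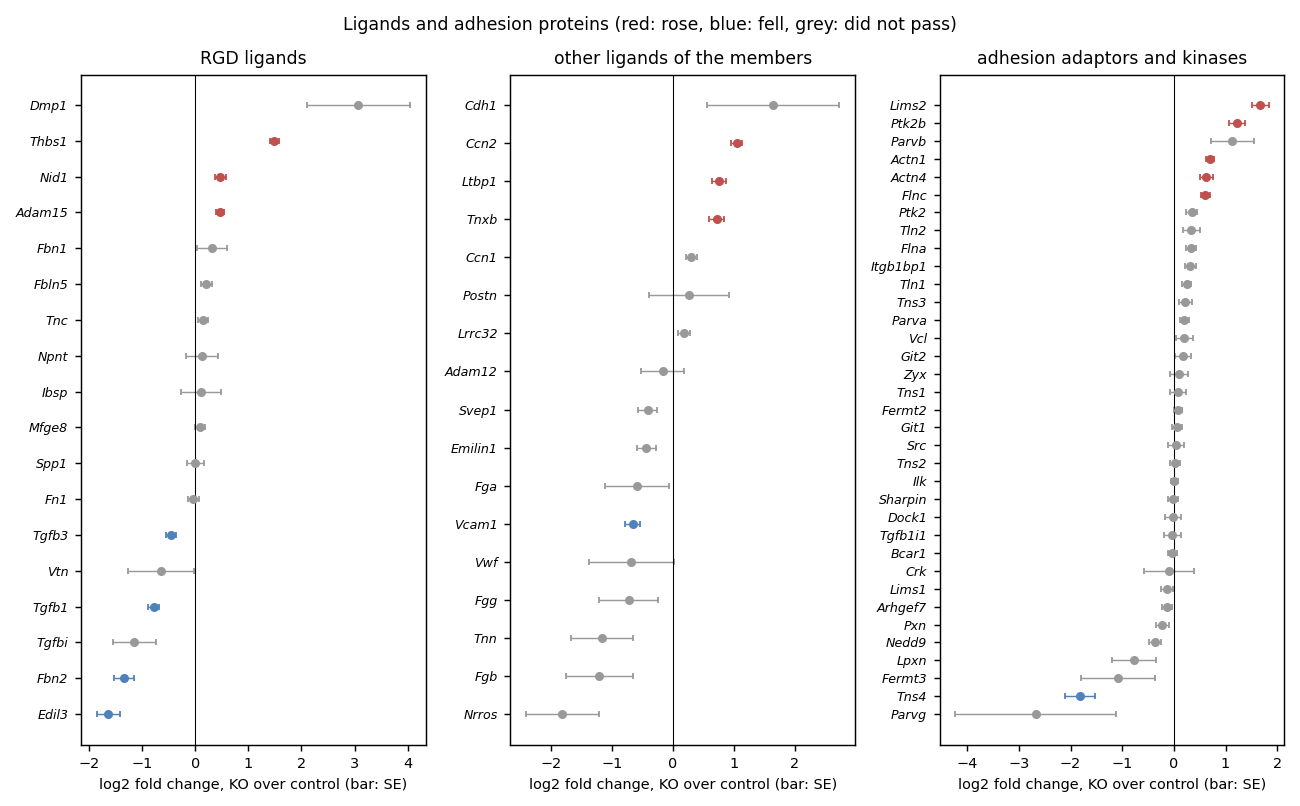
Log2 fold change, Nf2-knockout over control (x axis), with SE from the edgeR test as bars, for genes of 3 lists, the RGD ligands, the other ligands and the adhesion adaptors and kinases. Red points rose, blue points fell and grey points did not pass. Rises and falls are mixed among the ligands (3 and 4 of the RGD ligands), and 5 of the adaptors and kinases drawn rose while Tns4 fell.

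Inside the cell, 6 of 36 tested adhesion adaptors and kinases rose and 1 fell (median 0.08), against 4.11% and 5.18% of tested genes, and 5 to 7 rose and 1 fell without 1 library. Lims2, which encodes PINCH2 of the complex of integrin-linked kinase, rose to 46.4, 34.6 and 32.4 CPM in Nf2-knockout libraries, against 11.3, 11.3 and 13.0 CPM in controls (log2 fold change 1.67, SE 0.163, adjusted p = 0.0036). Ptk2b, the focal adhesion kinase relative PYK2, rose by 1.22 on the log2 scale. The actin-linking genes Actn1 and Actn4 (α-actinins) rose by 0.69 and 0.63, the second in 2 of 6 fits without 1 library, and Flnc by 0.61. Tns4, a tensin that binds β tails, had 43, 93 and 94 counts in the knockouts and 243, 257 and 240 in the controls (−1.81, adjusted p = 0.0126). Core integrin activators did not pass: Tln1 (talin 1) had a log2 fold change of 0.25 (adjusted p = 0.127) and Fermt2 (kindlin 2) of 0.08 (adjusted p = 0.587). The focal adhesion kinase gene Ptk2 did not pass either (0.34, adjusted p = 0.0847).

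For the 3 integrin genes that rose, the genes whose centred log2 CPM profile over the 6 libraries was nearest were found among 9593 or 9594 other tested genes with at least 10 CPM on average. Nearest to Itga8 were Pdlim1, Aldh1a7 and Nes, with root mean square differences of 0.301, 0.306 and 0.324 on the log2 scale. Nearest to Itgb7 were Epn2, Tcfl5 and Gclc, at 0.068, 0.0855 and 0.107. Nearest to Itga5 were Odf2, Tnfaip2 and Nup107, at 0.0225, 0.0313 and 0.0514. All 9 were compared over the same 6 libraries, and a like profile over so few is a description only.

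Promoter sequence of 300 bases (250 before to 50 after the start, RefSeq, GRCm38.p6) was matched for 9 of the 10 genes, with 10 windows in all. Of these, 7 held the start of the gene as the deposited table gives it. The Itga9 window lay at a RefSeq start 105002 bases downstream of it, inside the gene, the second Itgb6 window 48950 bases and the Itgb8 window 526 bases downstream, so the annotated starts of Itga9 and Itgb8 were not searched. The TEAD motif GGAATG, searched on both strands, was in 0 of these 10, against 14.7% of 32851 promoters of the same length. The AP-1 motif TGANTCA, which reads the same on both strands, was in 0 of the 7 windows at the gene's start and in 1 of the 3 others (the internal Itga9 window), against 7.81% of promoters. The motifs do not overlap each other, and an absent match says only that these letters are not in the window.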

How the data were processed

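The titles of the 6 poly(A) RNA-seq libraries gave their groups and numbers. The authors deposited 1 table with whole-number read counts and FPKM values, column by column per the file headers; counts of 0 stand as an FPKM of 0.0001 and were read as 0. Named in the submitters' processing notes, with no roles, are edgeR, StringTie 1.3.4d, HISAT2 2.0.4 and cutadapt 1.9, so the deposited counts may be rounded coverage estimates. No genome build is named there. Positions equalled those of GENCODE M21 (GRCm38) for 94.2% of 55141 genes. Here, counts were tested with edgeR 4.0.16 (R 4.3.3; filterByExpr, TMM, glmQLFit and glmQLFTest, group only), two-sided, Benjamini-Hochberg over 18218 genes. SEs were derived from each log2 fold change and its F statistic. Filtering required 0.166 CPM in 3 libraries. Tests were checked on simulated counts. Alternatives were DESeq2 1.42.0, its size factors, no filter, a replicate block, limma 3.58.1 on log2 FPKM and leaving out each library. No 2 libraries agreed within sampling noise. The integrin genes and all lists were chosen with earlier results of these data known. Named genes were the 10 integrins, their partners, Nf2, up to 6 genes per list with the smallest p-values (1 adaptor gene is counted but not reported here), abundant markers and the 3 nearest profiles; others named (Nid1, Actn4, Fn1, Spp1, Vtn, Tnc, Npnt, Madcam1, Tln1, Fermt2, Ptk2, Gm10157, Gm2415, Tcf21 and single markers) were chosen after their values were seen.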

Additional observations from a re-analysis of the deposited data

How the results depend on the processing

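Over 124 refits of the 10 integrin genes, the direction was kept in 123, the exception being Itgav, whose log2 fold change was 0.033 without control replicate 1 and ranged from −1.06 to 0.033 without 1 library. All refits drew on the same 6 libraries, so this count does not measure how certain a direction is. The number of integrin genes called was 3 in edgeR with TMM and ranged from 0 to 1 without 1 library (0 on leaving out control replicate 1 or Nf2-knockout replicate 1 or 3). Without control replicate 3 the 1 call was the fall of Itgb8. In the fits with 0 calls, edgeR had 4 to 6 of the 10 at an unadjusted p under 0.05. The same fits had 3643 to 4145 of all tested genes under that limit. With the replicate number as a block edgeR called 0 of the 10, with log2 fold changes of 0.43, 1.70 and 0.92 for Itga5, Itga8 and Itgb7. That fit had 5 of the 10 and 4076 of all tested genes at an unadjusted p under 0.05. Same-numbered libraries deviated together little (correlations −0.161, 0.017 and 0.0189), so the numbers were not taken as pairs, and the block called 923 of all genes. The number of genes changed was 1693, against 2618 with DESeq2, 1065 in limma on FPKM without a filter, and 629 to 1186 without 1 library. Itga8 also lost its call in that limma fit (adjusted p = 0.0503). Causes were not tested. Counts under about 100 (Itga4, Itgb6) limit what can be said of those genes, and these and Itga9 were under the filter on FPKM.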
